A study of Equus caballus with 4 samples.

Results

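TBX15, MAB21L1 and FOXC2 are regulators of embryonic development, and their transcripts were measured here in equine sarcoids and in skin of the same horses. The 3 genes were read through every array probe designed on their horse RefSeq transcripts, which gave 10 of the 43603 probes: 3 for TBX15, 5 for MAB21L1 and 2 for FOXC2. They are 3 of the 949 genes that carry a symbol on this array, of which 791 passed the filter on dim probes. Most probes carry Ensembl transcript IDs that are not named here, so further probes of these genes or of their relatives may be among them. The genes were chosen with their sarcoid-to-skin ratios known, so those ratios are given as a description and were not tested.

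An equine sarcoid is a locally invasive, fibroblast-rich tumour of horse skin. Tumour tissue and tumour-distant skin were taken from each of 4 horses, numbered 1 to 4, and hybridised together on 1 two-colour array per horse, the sarcoid RNA labelled with Cy3 and the skin RNA with Cy5. The labels used here give no age, sex or body site, and the descriptions of 3 of the samples name embryonic stem cells, against the tissue, dye and individual labels that were used. The dye assignment was the same on every array. A dye effect particular to a probe and a tissue difference cannot be told apart in these ratios.

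TBX15 encodes a T-box transcription factor of embryonic mesenchyme that is known from mice for its roles in the skeleton, in skeletal muscle and in the patterning of coat colour by the dermis. MAB21L1 encodes a protein of the Mab-21 family, which shares the fold of nucleotidyltransferases, and it is required for normal development of the lens and eye. FOXC2 encodes a forkhead transcription factor of mesoderm and mesenchyme that is needed to form lymphatic vessels and their valves, and its loss of function in people causes lymphoedema with an extra row of eyelashes.

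Between 67.2% and 78.4% of probes were well above background in the sarcoid channel and between 74.8% and 80.7% in the skin channel. No spot of the 3 genes carried an outlier mark of the kinds used here, and no spot was saturated. Of 19608 targets tested with limma, 1146 were called higher in sarcoid (5.84%) and 1941 lower (9.9%) at an adjusted p under 0.05. Calls higher and lower fell to 389 and 1077 without horse 1, to 591 and 1173 without horse 2, to 673 and 1255 without horse 3, and to 93 and 147 with the background fitted on all spots. The middle 90% of targets is bounded by mean log2 ratios of -1.40 and 1.00. RNA came from whole tissue, and more cells expressing a gene cannot be told apart from more RNA per cell.

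TBX15 was the brightest of the 3 genes and was higher in the sarcoid of every horse. In horses 1 to 4, the raw median spot signal of its brightest probe was 8019, 4053.5, 25946.5 and 5476 scanner units in sarcoid. In skin of the same horses it was 1981, 3770, 4414.5 and 2162. The sarcoid of horse 3 was far above the other 3 sarcoids, and in horse 2 the raw signals of the tissues were close to each other. After background correction and loess normalization, the log2 ratios of sarcoid over skin in horses 1 to 4 were 2.02, 1.04, 3.31 and 2.49. The mean was 2.22 ± 0.95 (SD, n = 4), or 4.65-fold. That mean is at percentile 99.6 of all targets tested and ranks 9 among the 791 genes with a symbol. With median centring in place of loess, the ratio of horse 2 was 0.53 and that of horse 3 was 2.79.

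The 3 TBX15 probes gave nearly the same values. Their mean log2 ratios lay between 2.19 and 2.22, horse 3 was highest and horse 2 lowest in each, and every probe was well above background in both channels on 4 of 4 arrays. To compare levels across horses, the processed signal was put on a log2 scale relative to the 75th percentile of its own array and channel. On this scale TBX15 lay between 2.65 and 5.08 in the 4 sarcoids, with a mean of 3.53 ± 1.07 (SD, n = 4). In the 4 skin samples it lay between 0.49 and 1.76, with a mean of 1.24 ± 0.55 (SD, n = 4). The lowest sarcoid was above the highest skin sample for all 3 probes, as it was for 10.2% of all targets.

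**Figure D1:**
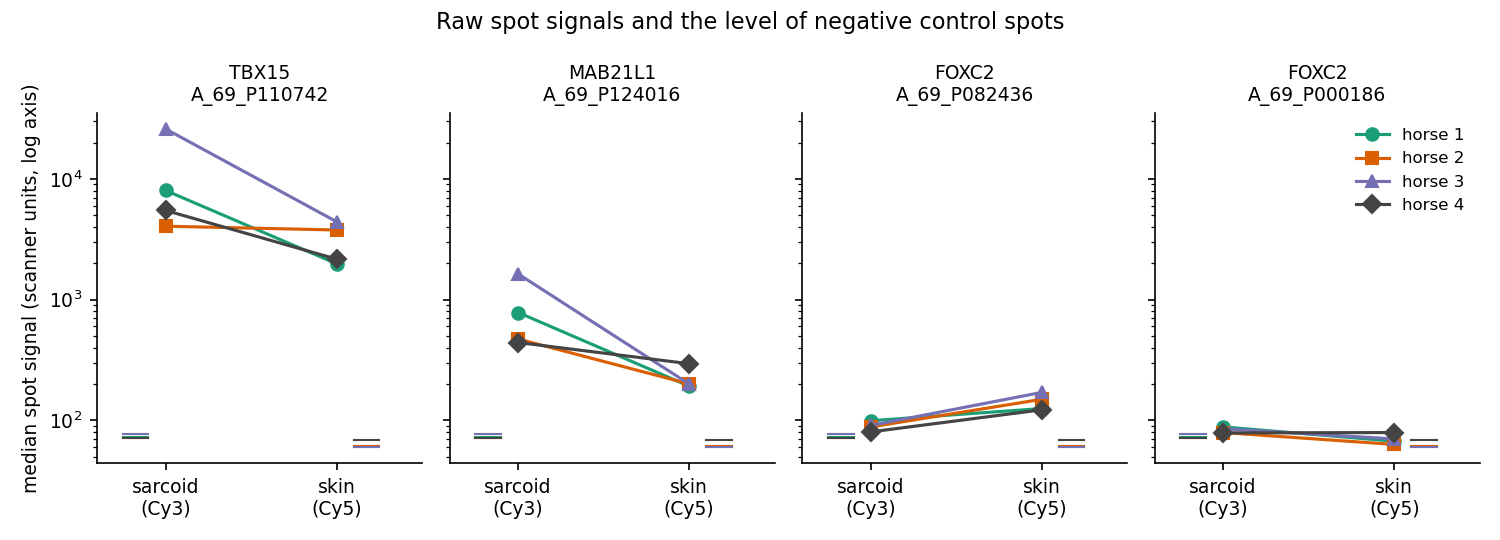
Raw median spot signals (scanner units, log axis) of 4 probes in sarcoid (Cy3) and skin (Cy5), with 1 line per horse. Short bars at the sides mark the 95th percentile of the negative control spots of each array. TBX15 lies far above these bars in both tissues, and both FOXC2 probes lie close to them.

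MAB21L1 was higher in sarcoid in every horse by each of its 5 probes. Its brightest probe, A_69_P124016, read 781, 471, 1631 and 440.5 scanner units in the sarcoids of horses 1 to 4 and 191.5, 200, 199.5 and 294 in their skin. In these raw signals, skin was highest in horse 4 and close together in the other 3 horses. The sarcoid of horse 3 stood above the other 3 sarcoids. Raw signals are not scaled between arrays. On the log2 scale used for TBX15 to compare horses, skin was highest in horse 1, at -2.53, against -2.89 in horse 4. The log2 ratios were 1.82, 1.82, 3.36 and 1.80, with a mean of 2.20 ± 0.77 (SD, n = 4), or 4.60-fold. It ranks 10 among the 791 genes with a symbol, next to TBX15. The other 3 horses differed from each other by little and horse 3 carried most of the spread, and without horse 3 the mean was 1.81.

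The size of the MAB21L1 ratio depended on the probe. The other 4 probes, A_69_P040086 to A_69_P040089, were dimmer, with 91 to 637 scanner units in sarcoid and 82 to 133 in skin. For comparison, the 95th percentile of the 153 negative control spots of an array was 71.0 to 77.4 in the Cy3 channel and 59.7 to 68.2 in the Cy5 channel. Their mean log2 ratios were 1.35, 1.40, 1.61 and 1.30, against 2.20 for the brightest probe. An offset of 50 was added to both channels before the logarithm, which by its construction shrinks the ratio of a dim probe. With an offset of 10 the 5 probe means lay between 1.78 and 2.45. From the signals that the scanner software had processed, with no offset, they lay between 2.51 and 2.87.

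With the reported processing, horse 3 was highest and horse 4 lowest in 5 of 5 MAB21L1 probes, although horses 1, 2 and 4 hardly differed for A_69_P124016. This order depended on the processing. From the processed signals, horse 1 was lowest for A_69_P124016 (2.24) and A_69_P040087 (2.08), and with the background fitted on all spots horse 1 was highest for all 5. On the scale relative to the 75th percentile, A_69_P124016 lay between -0.63 and 1.05 in sarcoid and between -3.21 and -2.53 in skin. The tissues did not overlap for 4 of the 5 probes, with sarcoid above skin, as for 10.2% of all targets. A_69_P040089 overlapped, and in the skin of horse 4 it was not well above background. The SD of the 4 skin levels was 0.31 for A_69_P124016, around a mean of -2.94, and 0.38 to 1.08 for the other 4 probes (n = 4).

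**Figure D2:**
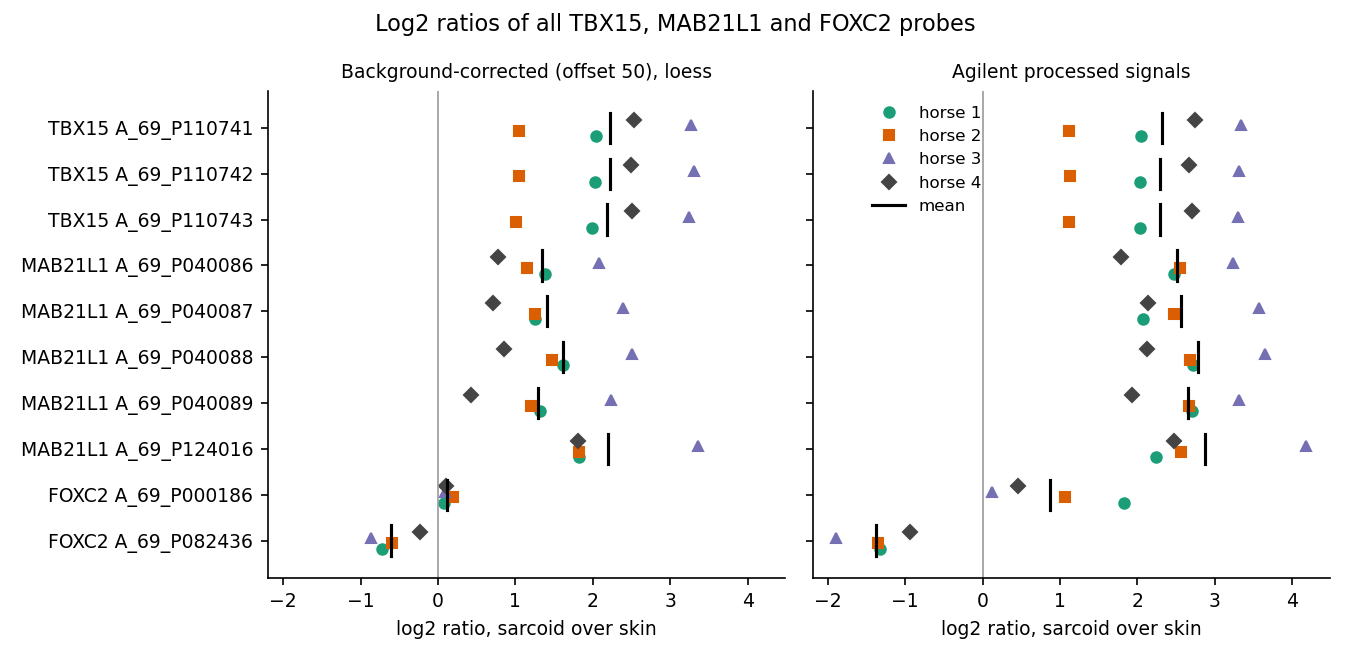
Log2 ratio of sarcoid over skin for each of the 10 probes, with 1 symbol per horse and a bar at the mean of 4 horses. The left panel uses background-corrected, loess-normalized signals with an offset of 50, and the right panel the scanner software's processed signals. The TBX15 probes coincide in both panels, the MAB21L1 probes differ more on the left than on the right, and the FOXC2 probes lie on opposite sides of 0.

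FOXC2 was close to background in both tissues, and its 2 probes did not give the same direction. Probe A_69_P082436, which passed the filter, read 99, 88, 90.5 and 80 scanner units in the sarcoids of horses 1 to 4 and 125, 149, 170 and 122 in their skin. It was well above background in 4 of 4 skin samples and in 3 of 4 sarcoids, the exception being horse 4. Its log2 ratios were -0.72, -0.60, -0.87 and -0.24, with a mean of -0.61 ± 0.27 (SD, n = 4). All 4 were below 0, at percentile 12.9 of all targets, and horse 4 was nearest to 0.

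The other FOXC2 probe, A_69_P000186, read 88, 79, 85 and 78.5 scanner units in sarcoid and 67, 63, 70 and 79 in skin. It was well above background in 1 of 4 sarcoids, horse 1, and in 0 of 4 skin samples, so it did not pass the filter and no fold is given. Its log2 ratios lay between 0.07 and 0.20, with a mean of 0.12 ± 0.05 (SD, n = 4). From the processed signals the mean was -1.37 ± 0.39 for A_69_P082436 and 0.86 ± 0.75 for A_69_P000186 (SD, n = 4). The direction of FOXC2 therefore rests on A_69_P082436.

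On the scale relative to the 75th percentile, A_69_P082436 lay between -5.91 and -4.99 in sarcoid and between -4.98 and -3.62 in skin. The tissues touched without overlapping: the skin of horse 4 was nearly as low as the highest sarcoid, that of horse 1. Highest sarcoid below lowest skin was found for 11.1% of all targets. The dim probe A_69_P000186 separated the tissues the other way, with -5.93 to -5.60 in sarcoid and -7.43 to -6.06 in skin. Lowest sarcoid above highest skin was found for 10.2% of all targets. TBX15 and MAB21L1 were above 0 on 4 of 4 arrays, and FOXC2 by A_69_P082436 was below 0 on 4 of 4. By these probes the directions were uniform over horses, as they were for 17.8% of all targets upwards and 22.7% downwards. By A_69_P000186, FOXC2 was above 0 in every horse. Nothing is read from these shares, since the genes were chosen for their ratios.

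**Figure D3:**
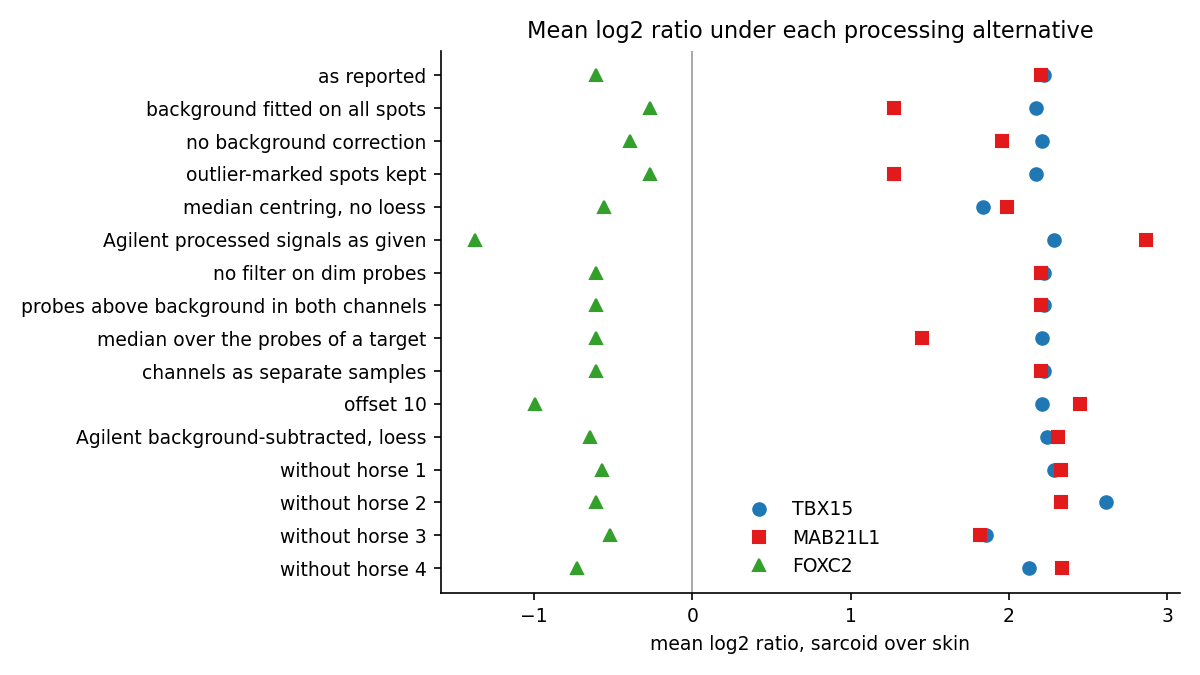
Mean log2 ratio of sarcoid over skin for TBX15, MAB21L1 and FOXC2 (brightest kept probe unless the setting says otherwise) as reported and under 15 processing alternatives. TBX15 stays between 1.83 and 2.61, and MAB21L1 spans 1.27 to 2.87. FOXC2, read by A_69_P082436 in all 16, stays below 0 and spans -1.37 to -0.27. Probe A_69_P000186 (mean 0.12) did not pass the filter and is not drawn, so the median over probes could not change FOXC2. The filter and pairing settings leave these means as reported, and leaving out a horse cannot change their sign.

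The background fit changed the dimmer genes and hardly changed TBX15. Spots marked as outliers were left out before the background was fitted. When the fit used all spots, its background SD reached 1394 and 1536 scanner units in the channels of horse 3 and 495 and 177 in those of horse 2, while it stayed near 1 in horses 1 and 4. The mean log2 ratio of MAB21L1 was then 1.27, with horses 2 and 3 lowered to 0.65 and 0.82. That of FOXC2 was -0.27 and that of TBX15 was 2.17.

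Likeness between genes was measured as the root mean square difference between the log2 ratios of 2 genes over the 4 horses, against each of the other 790 genes with a symbol, and 0 would mean the same ratio in every horse. All ratios come from the same 4 arrays and the same dyes. TBX15 and MAB21L1 differed by 0.53, and the median over all 790 genes was 2.47 for TBX15 and 2.40 for MAB21L1. This measure follows the mean ratio, and both genes were chosen with high ratios known, so nothing is read from their closeness. The lowest horse for TBX15 was horse 2. For MAB21L1, horses 1, 2 and 4 were at 1.82, 1.82 and 1.80, too close to name a lowest horse. Both shared their other nearest genes, HMCN1, DSE, COL5A2 and TMSB10. HMCN1 encodes the extracellular matrix protein hemicentin-1, DSE an epimerase that makes dermatan sulfate, COL5A2 a chain of type V collagen, and TMSB10 the actin-binding thymosin beta-10.

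The gene nearest to TBX15 was HMCN1, at 0.46, with log2 ratios of 1.30, 0.95, 2.97 and 2.04 in horses 1 to 4. HMCN1 thus had the same order of horses 2, 1, 4 and 3 from lowest to highest as TBX15. The gene nearest to MAB21L1 was COL5A2, at 0.48, which ranged from 1.78 to 2.44 over the horses. FOXC2 stood far from both, at 2.97 from TBX15 and 2.93 from MAB21L1. Its nearest genes were PSMB2 (0.15), a proteasome subunit, UBE2B (0.16), a ubiquitin-conjugating enzyme, PTGDS (0.16), a prostaglandin D synthase, HSD11B2 (0.17), which inactivates glucocorticoids, and NAXD (0.19), a metabolite repair enzyme. Many genes lie at such small ratios, and the median difference of FOXC2 from all 790 genes was 0.82.

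**Figure D4:**
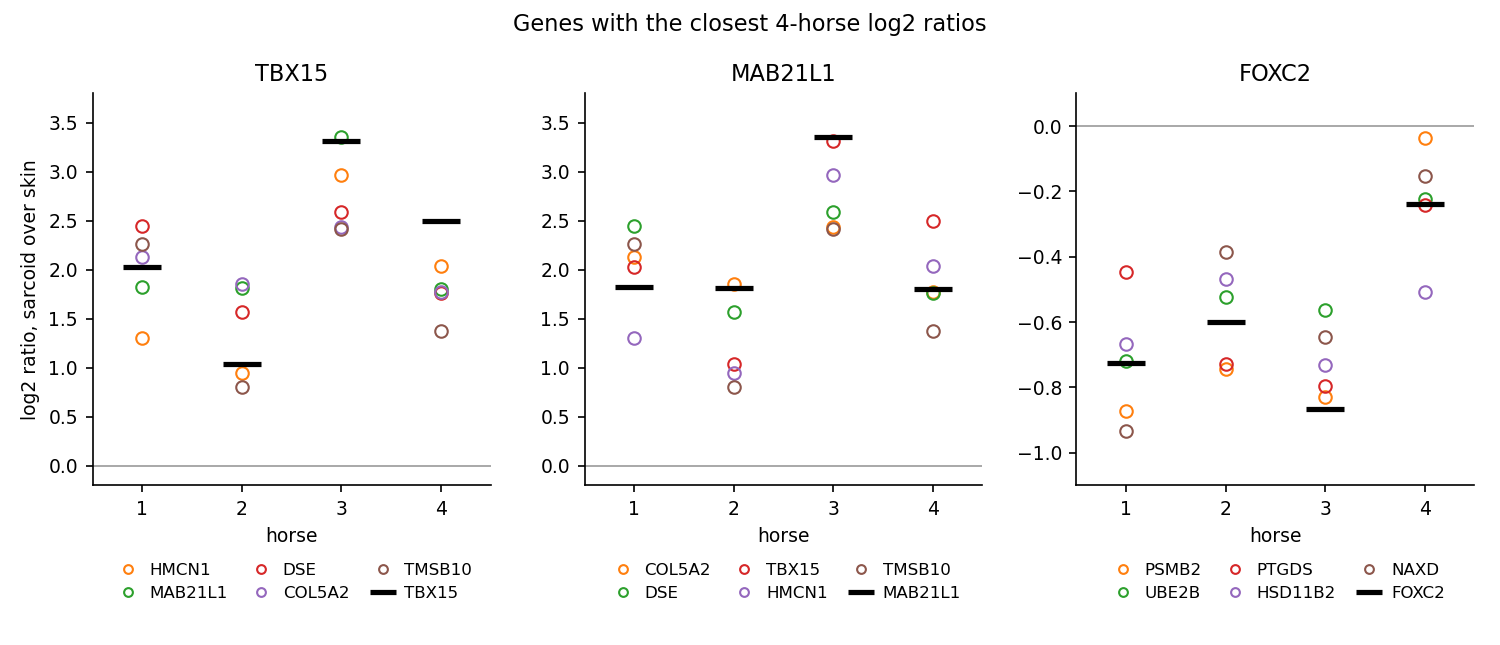
Log2 ratio of sarcoid over skin by horse for TBX15, MAB21L1 and FOXC2 (black bars) and the 5 genes nearest to each (open circles). Horse 3 is highest for TBX15, MAB21L1, HMCN1, DSE, COL5A2 and TMSB10, and the ratios beside FOXC2 lie between -0.93 and -0.04.

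Few other developmental regulators could be read on this array under a symbol. Of 217 further genes in the lists of T-box, forkhead and Mab-21 relatives, of mesenchymal, epidermal and hair follicle regulators and of myogenic and adipogenic regulators, 6 were tested. Of these 6, 0 were called higher (background 7.59% of genes with a symbol) and 2 lower (background 12%), and their median log2 ratio was -0.22, against 0.00 over all targets. The list of T-box, forkhead and Mab-21 relatives gave 1 of 62 genes, FOXP3, the factor of regulatory T cells, at -0.08 ± 0.09 (SD, n = 4). The myogenic and adipogenic list gave 0 of 17. No T-box or Mab-21 gene of these lists other than TBX15 and MAB21L1 was tested.

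Among 3 of 101 mesenchymal regulators tested, SCX, the tendon progenitor factor scleraxis, was lower. Its log2 ratios in horses 1 to 4 were -3.06, -1.53, -1.79 and -0.45, with a mean of -1.71 ± 1.07 (SD, n = 4; limma adjusted p = 0.0493). Like 22.7% of all targets, SCX was below 0 in every horse, and so opposite to TBX15, although horse 4 was close to 0. The call was lost in 8 of 15 alternatives, with adjusted p from 0.0134 to 0.334, and leaving out horse 1, 2 or 3 was among them, at 0.0970, 0.125 and 0.135. GLI1, the hedgehog effector, had log2 ratios of -0.64, -2.03, 2.69 and -1.11 and was not called (mean -0.27 ± 2.06, limma adjusted p = 0.850). Horse 3, the highest for TBX15 and MAB21L1, was the only horse with GLI1 above 0 in these ratios. Of the 7 GLI1 probes, A_69_P005056 read 0.08 ± 0.22 and A_69_P119461 0.007 ± 1.46 (SD, n = 4). The means of the others lay between -0.27 and -0.24. RUNX3, a runt-domain factor, was at -0.16 ± 0.40 and was not called.

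Of 37 epidermal and hair follicle regulators 2 were tested. KLF4, a zinc finger factor of the epidermal barrier, was lower, with log2 ratios of -0.49, -1.82, -0.94 and -1.51 and a mean of -1.19 ± 0.59 (SD, n = 4; limma adjusted p = 0.0312). The KLF4 call was lost in 6 of 15 alternatives, with adjusted p from 0.0203 to 0.119, among them leaving out horse 2 (0.0878), 3 (0.0775) or 4 (0.0995). VDR, the vitamin D receptor, was at -0.11 ± 0.15 and was not called. A further 3 genes, MB21D2, NKX3-2 and POU3F4, were picked by name after the array's symbols were seen. MB21D2, which carries a Mab-21 domain like that of MAB21L1, was at -0.72 ± 0.39 (SD, n = 4) and was not called (limma adjusted p = 0.0539). Its log2 ratios were below 0 in all 4 horses, as for 22.7% of all targets, and so opposite to MAB21L1. NKX3-2, a homeobox factor of the axial skeleton, was at -0.19 ± 0.14, and POU3F4, a POU domain factor of the inner ear, at 0.11 ± 0.05, and neither was called.

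**Figure D5:**
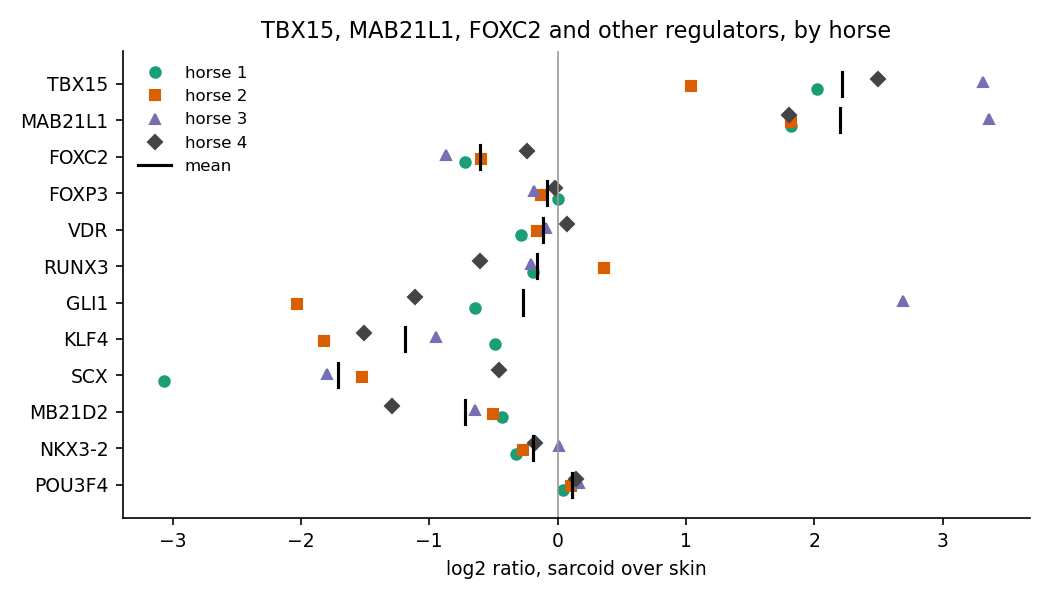
Log2 ratio of sarcoid over skin by horse, with a bar at the mean of 4 horses, for TBX15, MAB21L1, FOXC2, the 6 listed regulators that were tested and 3 regulators picked by name. TBX15 and MAB21L1 lie above 0 in every horse, and GLI1 on both sides. SCX, KLF4, MB21D2 and FOXC2 (probe A_69_P082436) lie below 0 in every horse.

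The fibroblast markers tested and the keratinocyte and gland markers tested differed between the tissues. All 3 of 19 fibroblast markers tested were called higher (background 7.59%): LUM, lumican, at 4.24 ± 1.16, DCN, decorin, at 1.84 ± 0.51, and VIM, vimentin, at 1.58 ± 0.47 (SD, n = 4). Their summed intensity, normalized within but not between arrays, was 469297 to 655584 in sarcoid and 102833 to 177043 in skin. All 5 of 30 keratinocyte and gland markers tested were called lower (background 12%), with a median log2 ratio of -5.12 and sums of 4994 to 10690 in sarcoid and 339842 to 477963 in skin. They include the basal keratin KRT15 at -5.12 ± 0.11, the sweat protein gene LATH at -6.33 ± 0.26 and S100A7 at -5.13 ± 0.36 (SD, n = 4). With the background fitted on all spots, limma's adjusted p was above 0.05 for VIM (0.0638) and S100A7 (0.0517), and with median centring for VIM (0.104) and DCN (0.0686). The part of these shifts in the ratios of TBX15, MAB21L1 and FOXC2 was not tested.

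Beside FOXC2, a gene of lymphatic vessels, 6 of 32 blood and lymphatic endothelial markers were tested. The rest of that list, with lymphatic markers among it, was not on the array under a symbol. The median log2 ratio of the 6 was 0.20, with 1 called higher (background 7.59% of genes with a symbol) and 5 not called. Nothing is read from a count this small. Their summed intensity was 5839 to 39757 in sarcoid and 3160 to 9786 in skin. The adhesion molecule VCAM1 was the called one, at 2.61 ± 0.78 (SD, n = 4; limma adjusted p = 0.00631), and 0.0706 was its adjusted p with the background fitted on all spots. SELE, E-selectin, was at -0.23 ± 0.29, and PECAM1 at 0.41 ± 1.71 ranged from -1.84 in horse 3 to 2.29 in horse 2. The part of endothelial cells in the FOXC2 ratio was not tested.

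Of 27 leukocyte markers 9 were tested, with a median of 0.56 and 1 called higher (background 7.59% of genes with a symbol). The called gene was CSF1R, the macrophage growth factor receptor, at 1.24 ± 0.51 (limma adjusted p = 0.0199). Its call was lost without horse 2 (0.0674) or horse 3 (0.0502), with the background fitted on all spots (0.265) and with median centring (0.0762). KLRD1 at 0.67 ± 0.36 and CD68 at 0.35 ± 0.21 were not called, and KLRD1 passed without horse 3 (limma adjusted p = 0.0451). Of 18 melanocyte and Schwann cell markers 8 were tested, with a median of -0.40 and 2 called lower (background 12%). These were PMEL at -2.16 ± 0.68 and TYRP1, while PMP22 was at 0.95 ± 0.68 and not called. TYRP1 was not well above background in any sarcoid. Of 15 skeletal muscle markers 4 were tested, with a median of -0.22 and 1 called lower (background 12%). The called gene was MB, which was not well above background in any sarcoid. MB was no longer called without horse 1, 2 or 3 (limma adjusted p = 0.0855, 0.0606 and 0.0659). MYH7 was at -0.53 ± 0.56 and PYGM at 0.09 ± 0.10. Nothing is read from the small counts of calls in these lists. The only smooth muscle marker tested of 12, TAGLN, was at -0.10 ± 0.82, and the only adipocyte marker of 12, RBP4, at -0.57 ± 0.41, and neither was called. Summed intensities in sarcoid and skin were 17044 to 52430 and 11308 to 31070 for leukocytes, 14499 to 23320 and 9613 to 16823 for melanocytes and Schwann cells, and 450 to 632 and 612 to 730 for skeletal muscle. For smooth muscle they were 1880 to 5639 and 2933 to 4795, and for adipocytes 75.5 to 113 and 88.9 to 174. Every gene in a sum carries the offset of 50, and sums are not scaled between arrays. A sum is weighted to its brightest members by construction. That of melanocytes and Schwann cells ranged higher in sarcoid, although the list's median was below 0 and its 2 calls were lower.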

How the data were processed

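The deposited scanner files hold, per the file headers, linear intensity of spots and their local surroundings in both channels. Per the submitters' processing notes, the software was Agilent Feature Extraction 11.5.1.1. Per the file headers, a second intensity was already corrected for background and dye, and a log10 ratio (Cy5 over Cy3) was stored for every spot. The authors' value table, in log10 units, equalled that ratio (largest difference 0, column medians 0, -0.0026, -0.012 and 0 for horses 1 to 4). It was not used further. Outlier, saturation and above-background marks are flags of 0 or 1 per the file headers.

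Spot signals were taken as the median pixel value. A spot counted as an outlier if either channel was flagged for a non-uniform spot, a non-uniform local background or a spot population outlier. The flag for a background population outlier was not used. Spots marked as outliers were left out, then limma 3.58.1 (R 4.3.3) applied normexp with an offset of 50 and loess within arrays, where control spots had weight 0. Leaving outlier spots out before the fit was chosen with earlier results of these data known. A probe was kept if either channel was well above background on 3 or more of the 4 arrays, and the brightest kept probe by mean intensity stood for a target. Accessions were named through a RefSeq gene table of the TB-T2T horse assembly. The array design names the EquCab1 build, so no coordinates are given. The test was two-sided, of the mean log2 ratio of 4 horses against 0 (lmFit, eBayes), with p-values adjusted by Benjamini and Hochberg's method over 19608 targets. Since each ratio is taken within a horse, it carries the pairing. The arrays share their slide and scan, so neither could be a block.

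The 3 genes and all gene lists were chosen with earlier results of these data known. Genes named are the 3 genes with every probe, the listed regulators measured under a symbol, up to 3 members of each cell type list with the smallest p, and for each of the 3 genes the 5 with the smallest root mean square difference. The test was checked on simulated ratios. Alternatives covered background correction, outlier spots, normalization, offset, filters, probe choice, pairing, threshold and each horse left out. A listed marker is not reported here but stays in the counts of its list. The number of arrays limits the precision.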

Additional observations from a re-analysis of the deposited data

Results flagged for a closer look

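In 69 groups of 4 horses, the sample farthest from the others was compared with the group's whole range, and 4 stood apart by Dixon's criterion for 4 values (the gap to the nearest sample over the range), where chance gives about 1 group in 20. The log2 ratio of MAB21L1 probe A_69_P124016 in horse 3 was 3.36, with a gap of 0.989 of the range. The ratio of the same probe and horse from the processed signals was 4.18, with a gap of 0.833. The skin level of FOXC2 probe A_69_P082436 in horse 4 was -4.98 relative to the 75th percentile, below the other 3 skin samples by 0.830 of the range. The log2 ratio of VIM in horse 1 was 2.29, above the other 3 horses by 0.934 of the range.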

How the results depend on the processing

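TBX15 kept its direction and moved by less than the SD between horses in all 17 alternatives (1.83 to 2.61). The mean log2 ratio of MAB21L1 stayed above 0 in all 19 and moved by more than that SD in 5: it was 1.27 with the background fitted on all spots, 1.27 with outlier-marked spots kept, and 1.35, 1.40 and 1.30 by probes A_69_P040086, A_69_P040087 and A_69_P040089. FOXC2 moved to -0.27 under both of these background settings, to -1.37 with processed signals and to -0.996 with an offset of 10. FOXC2 reversed to 0.12 by probe A_69_P000186. The filter settings and the pairing setting used the same probes and left the means of the 3 genes as reported. Leaving out a horse could not reverse a mean whose ratios all have the same sign. Nothing on direction is read from those settings. The offset acts on dim probes by construction; the cause of the other shifts was not tested. The offset of 10, the background-subtracted signals and the other probes were chosen after seeing the data.

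Over all targets, calls higher and lower were 1146 and 1941 (37.1% higher) as reported, 93 and 147 with the background fitted on all spots, and 94 and 147 with outlier-marked spots kept. They were 614 and 2679 (18.6% higher) with median centring, which shifted the median of all targets to -0.10, and 1887 and 2025 (48.2% higher) with processed signals, which shifted it to 0.09. At an adjusted p under 0.01 they were 253 and 864, and with 1 horse left out 389 to 820 and 1077 to 1415. Without the replicate block, that is with the channels as separate samples in place of pairing by horse, they were 928 and 1760. Of the listed regulators, 2 were lower as reported, 0 with the background fitted on all spots, with outlier-marked spots kept or at an adjusted p under 0.01, and 1 without background correction, without the filter, with the median over probes or without the replicate block. With 1 horse left out 0 to 1 were lower, and 0 were higher in all 16 alternatives.

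With the background fitted on all spots, limma's adjusted p rose above 0.05 for SCX (0.334), KLF4 (0.119), VIM (0.0638), VCAM1 (0.0706), S100A7 (0.0517), CSF1R (0.265), PMEL (0.258), MB (0.320) and TYRP1 (0.317). With median centring it did so for VIM (0.104), DCN (0.0686) and CSF1R (0.0762). Calls were gained by POU3F4 (0.0441), RBP4 (0.0453) and KLRD1 (0.0305) with processed signals, by KLRD1 also with the median over probes (0.0348), an offset of 10 (0.0403) or without horse 3 (0.0451), and by MB21D2 with an offset of 10 (0.0470) or without the replicate block (0.0302). Genes that were not called changed sign as follows: FOXP3 to 0.0037 with median centring, GLI1 to 0.31 without horse 2 and 0.0066 without horse 4 (range with 1 horse left out -1.26 to 0.31), PECAM1 to -0.22 without horse 2 (-0.22 to 1.16), and TAGLN to 0.15 without horse 3 and 0.07 without horse 4 (-0.45 to 0.15). Signal over background limits FOXC2 and the 4 dimmer MAB21L1 probes, and 4 arrays with 0 dye swaps limit every ratio.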
